A study of Mus musculus with 6 samples.

Results

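The 48 genes described here encode the machinery that takes a cell from G2 through mitosis. They are a fixed list taken by gene symbol, drawn up when earlier results of these data were known, and each of the 48 was found in both deposited expression tables, which share 14082 genes and hold 14667 in all. Expression was read in 3 groups of NE-4C, a neural stem cell line from mouse brain that lacks p53, with 2 poly(A) libraries in each group. Per the labels, H3f3a, a gene for the histone variant H3.3, was knocked out in every group, and each stably expressed an HA-tagged H3.3 protein. H3.3K27M cells expressed HA-tagged H3.3 with methionine at the K27 position. Cbfa2t2_KO cells expressed HA-tagged wild-type H3.3 after a further knockout of Cbfa2t2, which encodes a transcriptional corepressor. H3.3WT cells expressed HA-tagged wild-type H3.3 with no edit of Cbfa2t2. Whether a line is 1 clone, and whether replicate libraries stem from different cultures, is not stated in the labels. The p-values therefore measure only the spread between these libraries, which may be technical.

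As background, entry into mitosis is driven by CDK1 bound to cyclin A or cyclin B, switched on by CDC25 phosphatases and reinforced by the Polo-like and Aurora kinases. The spindle checkpoint then holds the anaphase-promoting complex until every chromosome is attached, after which CDC20 directs the destruction of securin and cyclin B. Most of these genes are silent in G1 and are transcribed late in the cycle, when the MuvB proteins with B-MYB and FOXM1 act at CHR elements and NF-Y acts at CCAAT boxes in their promoters. Proliferating neural stem cells express them as a matter of course.

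Values are FPKM (fragments normalised for transcript length and library size), a measure per length, so levels may be set side by side between genes. The read depth behind them is unknown. Summed over the 48 genes, FPKM came to 1561 and 1515 in H3.3K27M, 1502 and 1480.5 in Cbfa2t2_KO, and 1239.9 and 985.5 in H3.3WT. Those sums were 0.420% and 0.363% of the library total in H3.3K27M, 0.400% and 0.377% in Cbfa2t2_KO, and 0.341% and 0.269% in H3.3WT. The H3.3WT libraries stood below the other 4, with replicate 2 the lower. Cbfa2t2 had 2.02 and 0.855 FPKM in H3.3K27M, 1.02 and 0.769 FPKM in Cbfa2t2_KO, and 1.38 and 1.35 FPKM in H3.3WT. Its difference between Cbfa2t2_KO and H3.3WT did not pass (limma, adjusted p = 0.153), and a value over a whole transcript does not check an edit that leaves the transcript in place. H3f3a was listed at 77.3 and 66.8 FPKM in H3.3K27M, 82.1 and 66.3 FPKM in Cbfa2t2_KO, and 131 and 181 FPKM in H3.3WT. It was called lower in H3.3K27M (log2 change -1.09, limma adjusted p = 0.00708) and in Cbfa2t2_KO (-1.05, adjusted p = 0.00501). These values do not show the labelled knockout, and what part of them comes from the expressed H3.3 copy was not tested.

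The neural stem cell label held for part of its 12 markers, and the markers differed between the groups. Nes, Sox2, Sox3 and Vim were between 9.55 and 92.9 FPKM in every library, but Pax6 was at most 0.926 FPKM and Hes5 at most 0.678 FPKM, and Sox1 and Fabp7 are not among the genes analysed here. Of the 8 tested, 2 were higher and 4 lower in H3.3K27M, and likewise 2 and 4 in Cbfa2t2_KO. Over all genes tested, 8.42% were higher and 17.8% lower in H3.3K27M, and 13.1% and 21.5% in Cbfa2t2_KO. The summed FPKM of the list was 159 to 173 in H3.3K27M, 136 to 141 in Cbfa2t2_KO and 207 to 215 in H3.3WT. Sox2, a factor of neural progenitors, had 28.1 and 32.2 FPKM in H3.3K27M, 12.3 and 9.55 FPKM in Cbfa2t2_KO, and 30.9 and 34.4 FPKM in H3.3WT. Over the 6 of 10 neuron markers in both tables the sum was 87.4 to 94.1 FPKM in H3.3K27M, 143 to 158 FPKM in Cbfa2t2_KO and 84.4 to 87.8 FPKM in H3.3WT. Most of it was Tubb3, a neuronal tubulin, which rose by 0.93 in Cbfa2t2_KO (limma adjusted p = 0.00223). Of the 6 neuron markers tested in Cbfa2t2_KO, 2 were higher and 0 lower, 3 had a positive log2 change, and the lowest change was -0.34. Of the 5 tested in H3.3K27M, 0 were higher and 2 lower, with a lowest change of -0.74. The 3 of 6 astrocyte markers in both tables summed to 49.2 to 61.4 FPKM in H3.3K27M, 25.6 to 41.3 FPKM in Cbfa2t2_KO and 26.3 to 33.3 FPKM in H3.3WT, with Gja1 and Aldh1l1 higher and Slc1a3 lower in H3.3K27M. Of 7 microglia and leukocyte markers Cd68 alone was listed, and it rose in both lines, by 0.69 in H3.3K27M and 1.203 in Cbfa2t2_KO. The 5 of 9 mesenchymal markers in both tables summed to 26 to 27.5 FPKM in H3.3K27M, 20.2 to 21.9 FPKM in Cbfa2t2_KO and 27.9 to 32.2 FPKM in H3.3WT, and the oligodendrocyte and endothelial lists to at most 3.93 FPKM and 0.69 FPKM. The defining markers Gfap, Aqp4, Olig1, Sox10, Ptprc and Cdh5 are not among the genes listed in both tables, and the lowest maximum of a listed gene was 0.5 FPKM. The part of these marker shifts in the members' change was not tested.

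Part of the mitotic genes rose in both altered lines, and in the main fits, with all libraries and no scaling, no member was called lower in either. In Cbfa2t2_KO some members were called lower under other settings and without its replicate 1. In H3.3K27M against H3.3WT, 20 of the 48 members were higher and 0 lower, that is 41.7% of the members, where 8.42% of all 11623 genes tested were called higher and 17.8% lower. In Cbfa2t2_KO against H3.3WT, 11 members were higher and 0 lower, or 22.9% of the members, where 13.1% of all 11626 genes tested were called higher and 21.5% lower. Calls are from limma on log2(FPKM + 1) with a Benjamini-Hochberg adjusted p under 0.05 over all genes averaging 1 FPKM or more, a filter that all 48 members passed. At an unadjusted p under 0.05, 27 members were higher and 1 lower in H3.3K27M, where 13.9% of all genes were higher and 26.6% lower, and 18 were higher and 1 lower in Cbfa2t2_KO, where 17.8% were higher and 28.2% lower. The median log2 change of the members was 0.48 in H3.3K27M, against -0.12 over all genes, and 0.33 in Cbfa2t2_KO, against -0.11 over all genes. In bulk RNA, a larger share of cells in G2 or mitosis and more of these transcripts per cell cannot be told apart.

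The number of calls depended on single libraries. In H3.3K27M, 12 and 11 members were higher without its replicate 1 and without its replicate 2, 9 without H3.3WT replicate 1 and 5 without H3.3WT replicate 2. The share of all genes called higher was lower too, at 6.99% and 4.06% in those first 2 fits and 3.14% and 2.56% in the others. Ccna2, Ccnb1, Ccnb2, Cdk1 and Ncapg were called higher there without each library in turn, and Cdc25b, Ect2, Kif4, Mad2l1, Ncaph and Tpx2 lost the call without any 1 of the 4. Aurkb was lost without either H3.3K27M library or H3.3WT replicate 2, Racgap1 without H3.3K27M replicate 1 or either H3.3WT library, and Ube2c without H3.3K27M replicate 2 or either H3.3WT library. Anln, Bub1 and Top2a were lost without either H3.3WT library, Kif2c without H3.3K27M replicate 2 or H3.3WT replicate 2, and Nusap1 and Pttg1 without H3.3WT replicate 2. The adjusted p of the lost calls was 0.0514 to 0.112 and 0.0547 to 0.107 without an H3.3K27M library, and 0.0515 to 0.205 and 0.0509 to 0.262 without an H3.3WT library. In Cbfa2t2_KO, 8 members were higher without its replicate 1, 8 without its replicate 2, 17 without H3.3WT replicate 1 and 8 without H3.3WT replicate 2, where 7.71%, 6.07%, 10.1% and 7.67% of all genes were called higher. Ccna2, Ccnb1, Ccnb2, Cdk1, Pttg1, Aurkb and Kif2c were called higher there without each library in turn. Kif22 and Ncaph were lost without either Cbfa2t2_KO library or H3.3WT replicate 2, Top2a without Cbfa2t2_KO replicate 1 or either H3.3WT library, and Cdc25b without Cbfa2t2_KO replicate 2 (adjusted p = 0.0557 to 0.131 over these). Fewer libraries also leave less to estimate the spread, since a lone library is assumed to vary like the other groups.

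Scaling moved the counts upward. Median-of-ratios scaling brought the median log2 change of all genes, -0.12 in H3.3K27M and -0.11 in Cbfa2t2_KO as deposited, to 0.00 in both, and gave 25 members higher in H3.3K27M, with 11.8% of all genes, and 18 in Cbfa2t2_KO, with 17.9% of all genes. Under that scaling the share of higher calls among all calls was 49.0% in H3.3K27M, against 32.1% without it, and 50.8% in Cbfa2t2_KO, against 37.9% without it. The members' medians moved up along with those of all genes, from 0.48 to 0.61 in H3.3K27M and from 0.33 to 0.44 in Cbfa2t2_KO. Under the same scaling 1 member, Cenpf, was called lower in Cbfa2t2_KO, where 17.3% of all genes were lower.

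Both comparisons use the same H3.3WT libraries, so their values are set side by side and no overlap is read from them. The members higher in both were Ccna2, Ccnb1, Ccnb2, Cdc25b, Cdk1, Pttg1, Aurkb, Kif2c, Ncaph and Top2a, 10 in all. Another 10 passed in H3.3K27M but not in Cbfa2t2_KO, namely Anln, Bub1, Ect2, Kif4, Mad2l1, Ncapg, Nusap1, Racgap1, Tpx2 and Ube2c. Kif22 passed in Cbfa2t2_KO but not in H3.3K27M, and 27 members passed in neither. Of these 11 genes on 1 side only, the direct test between the lines passed for Bub1 alone. All 20 members called in H3.3K27M and all 11 called in Cbfa2t2_KO had groups that did not overlap, among 33 and 28 members whose values all lay above those of H3.3WT. Of all genes, 25.1% lay wholly above H3.3WT in H3.3K27M and 28.5% in Cbfa2t2_KO. Values lay wholly below H3.3WT for 1 member in H3.3K27M (Bub3) and for 5 in Cbfa2t2_KO, where 41.3% and 42.0% of all genes did.

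**Figure D1:**
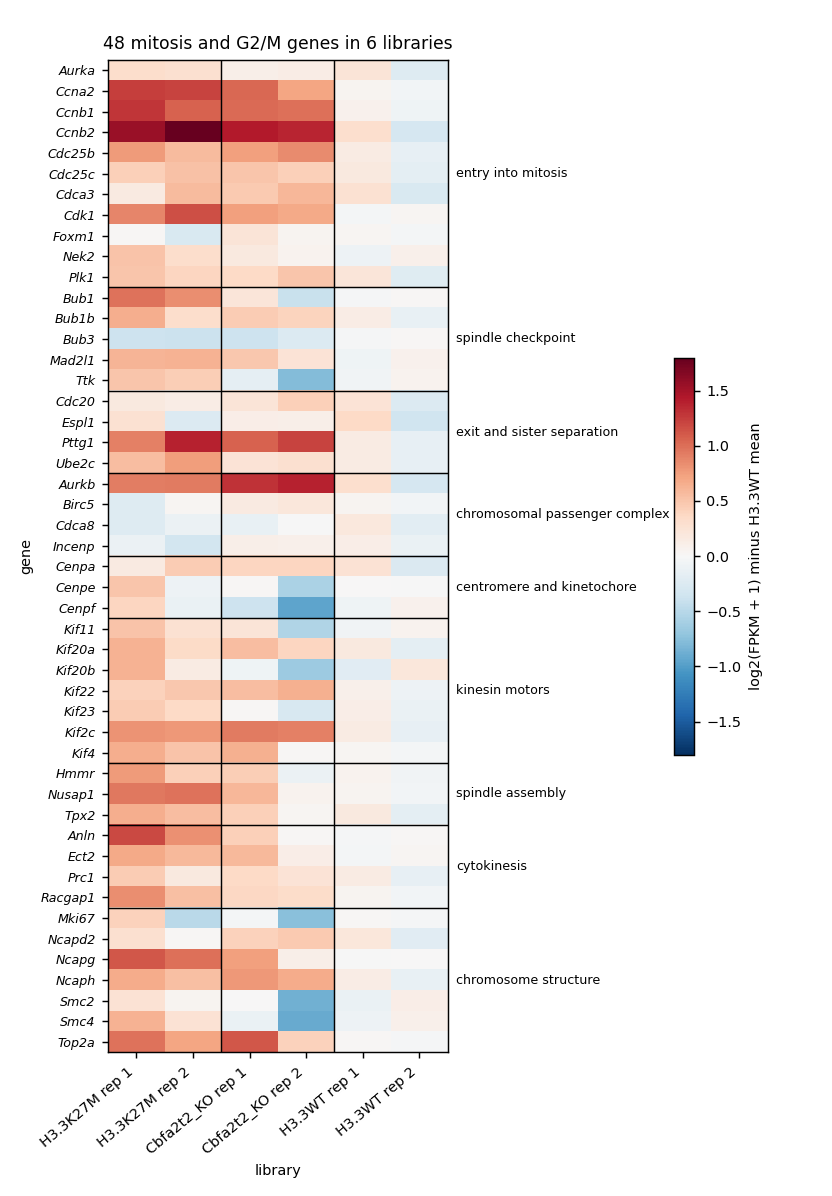
Colour gives log2(FPKM + 1) of each of the 48 genes (rows, grouped by role) in each of the 6 libraries (columns), minus the gene's H3.3WT mean. The H3.3K27M columns are mostly red, with 44 and 40 genes above the H3.3WT mean, Cbfa2t2_KO has 41 and 35, and its replicate 2 holds a run of blue rows from Bub1 and Ttk to Cenpf, Smc2 and Smc4.

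A recognisable pair of elements was found in the promoters of 29 of the 40 members with an entry. Of these 40 promoters, 5 are printed because their genes stand at different places in the results. Ccnb2, Cdk1 and Ccnb1 were higher in both lines, and Top2a was higher in both with a wide spread in Cbfa2t2_KO. Bub1 was called higher in H3.3K27M than in Cbfa2t2_KO, where 4.2% of members and 3.12% of all genes were. Each printed stretch runs 5′ to 3′ from 150 bases before the RefSeq start to 30 bases from it, in GRCm38.p6. Capitals mark the CHR (TTTGAA or TTCGAA) and the CCAAT box, each on either strand, so that ATTGG and TTCAAA are also in capitals. The windows are chr9:70421525-70421704 for Ccnb2, chr10:69352883-69353062 for Cdk1, chr13:100786457-100786636 for Ccnb1, chr11:99024160-99024339 for Top2a and chr2:127831830-127832009 for Bub1, all on the minus strand.
Ccnb2: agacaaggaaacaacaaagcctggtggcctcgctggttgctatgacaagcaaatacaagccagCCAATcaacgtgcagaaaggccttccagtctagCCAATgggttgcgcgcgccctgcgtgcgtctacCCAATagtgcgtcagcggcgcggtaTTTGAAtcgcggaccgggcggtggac
Cdk1: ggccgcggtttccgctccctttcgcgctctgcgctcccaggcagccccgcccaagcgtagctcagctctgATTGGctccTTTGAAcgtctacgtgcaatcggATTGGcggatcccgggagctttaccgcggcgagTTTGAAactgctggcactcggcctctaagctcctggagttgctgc
Ccnb1: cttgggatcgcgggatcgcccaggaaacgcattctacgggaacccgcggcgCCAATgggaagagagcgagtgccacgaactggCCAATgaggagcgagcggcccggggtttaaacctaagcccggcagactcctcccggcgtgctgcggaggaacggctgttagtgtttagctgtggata
Top2a: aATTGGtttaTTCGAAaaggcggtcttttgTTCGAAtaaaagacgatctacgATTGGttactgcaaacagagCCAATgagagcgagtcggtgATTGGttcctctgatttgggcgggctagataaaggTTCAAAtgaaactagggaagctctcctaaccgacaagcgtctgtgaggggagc
Bub1: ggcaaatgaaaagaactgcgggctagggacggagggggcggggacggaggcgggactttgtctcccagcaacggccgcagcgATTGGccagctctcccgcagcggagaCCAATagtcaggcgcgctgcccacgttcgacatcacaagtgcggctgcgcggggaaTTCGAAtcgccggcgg
Ccnb2 has 3 CCAAT boxes, starting at -87, -54 and -21, and a CHR at 5, counted from 1 at the RefSeq start. Cdk1 has CCAAT boxes at -80 and -48 and a CHR at -71 and at -15. Ccnb1 has CCAAT boxes at -99 and -67 and neither form of the CHR in the window. Bub1 has CCAAT boxes at -68 and -42 and a CHR at 15.

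The RefSeq promoter table matched 40 of the 48 members. Cdc25c, Tpx2, Aurkb, Incenp, Kif20a, Smc4, Ccna2 and Foxm1 had no entry. Over 300 bases, 250 before the start and 50 from it, 32 of the 40 promoters (80.0%) held a CHR, against 13.3% of 9347 protein-coding genes in the expression tables and 19.4% of all 27025 promoters. A CCAAT box stood in 32 of the 40 (80.0%), against 39.5% and 37.9%, and both elements in 29 (72.5%), against 6.0% and 7.7%. Motifs were searched on both strands, and 2 pairs of motifs overlapped. The median start of the CHR was -10 and that of the CCAAT box -69.5. E2F-like motifs (GCGCGAA or GGCGGGA) were in 27.5% of members, against 25% and 12.6%. Among members with a CHR, 12 of 32 were higher in H3.3K27M and 6 of 32 in Cbfa2t2_KO, while among those without one the counts were 5 of 8 and 3 of 8. Of genes outside the members with a CHR, 9.06% were higher in H3.3K27M and 12.22% in Cbfa2t2_KO. Over all genes outside the members with a promoter entry, 7.0% and 12.9% were higher. Of the genes with neither element in the window, Pttg1, Ncaph, Nusap1 and Mad2l1 were called higher in H3.3K27M and Birc5 did not pass. The windows of Cdca3, Cdca8, Kif2c, Kif4 and Pttg1 lie wholly inside the gene as annotated in GENCODE. For these genes, bases before the annotated 5′ end were not searched, and their windows count in the shares above. A match describes the letters only, and no match says only that they are not in this window.

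Among the 11 genes of entry into mitosis, 5 rose in both lines, while Plk1, Aurka and Foxm1 did not pass in either. Ccnb2, a cyclin B on chr9:70407692-70421547, had the largest log2 change of any member in both lines. It was at 93.3 and 111 FPKM in H3.3K27M, 85.3 and 82.0 FPKM in Cbfa2t2_KO, and 38.6 and 25.1 FPKM in H3.3WT. The 4 values of the altered lines all lay above both H3.3WT values. Its mean was 102 ± 12.4 FPKM in H3.3K27M, 83.6 ± 2.33 FPKM in Cbfa2t2_KO and 31.9 ± 9.58 FPKM in H3.3WT (SD, n = 2 each). The log2 change was 1.68 ± 0.22 in H3.3K27M (SE, limma adjusted p = 0.00228) and 1.40 ± 0.20 in Cbfa2t2_KO (adjusted p = 0.00212). Ccnb1, the main mitotic cyclin B, had 41.7 and 35.6 FPKM in H3.3K27M, 34.5 and 33.8 FPKM in Cbfa2t2_KO, and 17.6 and 15.6 FPKM in H3.3WT. It rose by 1.17 ± 0.17 in H3.3K27M (adjusted p = 0.00325) and by 1.00 ± 0.14 in Cbfa2t2_KO (adjusted p = 0.00207). The processed pseudogenes Ccnb1-ps, Gm12856 and Gm8416 match it at 97.3% to 99.2%, so reads could be split between them. All 3 were at most 2.67 FPKM. In H3.3K27M, Ccnb1-ps was itself higher (log2 change 0.93, limma adjusted p = 0.00717), as was Gm12856 (0.67, adjusted p = 0.0207), while Gm8416 did not pass (0.51, adjusted p = 0.0663).

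Ccna2, cyclin A, which acts from S phase to early mitosis, rose in both lines and is on chr3:36564865-36572150. It had 30.4 and 29.7 FPKM in H3.3K27M, 26.0 and 20.6 FPKM in Cbfa2t2_KO, and 12.6 and 11.8 FPKM in H3.3WT. The change was 1.23 ± 0.16 in H3.3K27M (limma adjusted p = 0.00226) and 0.87 ± 0.16 in Cbfa2t2_KO (adjusted p = 0.00603). Its exons share 12.5% of their bases with Exosc9 on the other strand, and Exosc9 was at most 3.97 FPKM. Cdk1, the kinase these cyclins bind, had 33.1 and 40.5 FPKM in H3.3K27M, 30.1 and 28.8 FPKM in Cbfa2t2_KO, and 17.0 and 18.1 FPKM in H3.3WT. It rose by 1.02 ± 0.17 in H3.3K27M (adjusted p = 0.0054) and by 0.71 ± 0.14 in Cbfa2t2_KO (adjusted p = 0.00679). Cdc25b, a phosphatase that activates CDK1, had 18.02 and 15.5 FPKM in H3.3K27M, 17.6 and 19.1 FPKM in Cbfa2t2_KO, and 11.3 and 9.10 FPKM in H3.3WT. Its change was 0.67 ± 0.19 in H3.3K27M (adjusted p = 0.0325) and 0.79 ± 0.16 in Cbfa2t2_KO (adjusted p = 0.00909). In each of these genes the altered lines lay above H3.3WT with no overlap.

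The 6 other entry genes did not pass in either line. Plk1, the Polo-like kinase that promotes entry and spindle formation, had 101 and 93.8 FPKM in H3.3K27M, 92.1 and 101 FPKM in Cbfa2t2_KO, and 83.3 and 60.9 FPKM in H3.3WT. Its groups did not overlap, but the changes were 0.45 ± 0.19 in H3.3K27M (limma adjusted p = 0.118) and 0.43 ± 0.17 in Cbfa2t2_KO (adjusted p = 0.0848). Aurka, a kinase of the centrosome and spindle poles, had 85.6 and 84.2 FPKM in H3.3K27M, 74.1 and 75.7 FPKM in Cbfa2t2_KO, and 81.2 and 58.3 FPKM in H3.3WT. The H3.3WT values spanned those of Cbfa2t2_KO. Foxm1, the transcription factor that drives many G2/M genes, had 15.6 and 12.6 FPKM in H3.3K27M, 18.2 and 16.1 FPKM in Cbfa2t2_KO, and 15.8 and 15.0 FPKM in H3.3WT. The 95% interval of its log2 change ran from -0.54 to 0.28 in H3.3K27M and from -0.20 to 0.48 in Cbfa2t2_KO. Cdc25c, Cdca3 and Nek2, the last a kinase of centrosome separation, had log2 changes of 0.37 to 0.48 in H3.3K27M and 0.13 to 0.53 in Cbfa2t2_KO, none of which passed.

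**Figure D2:**
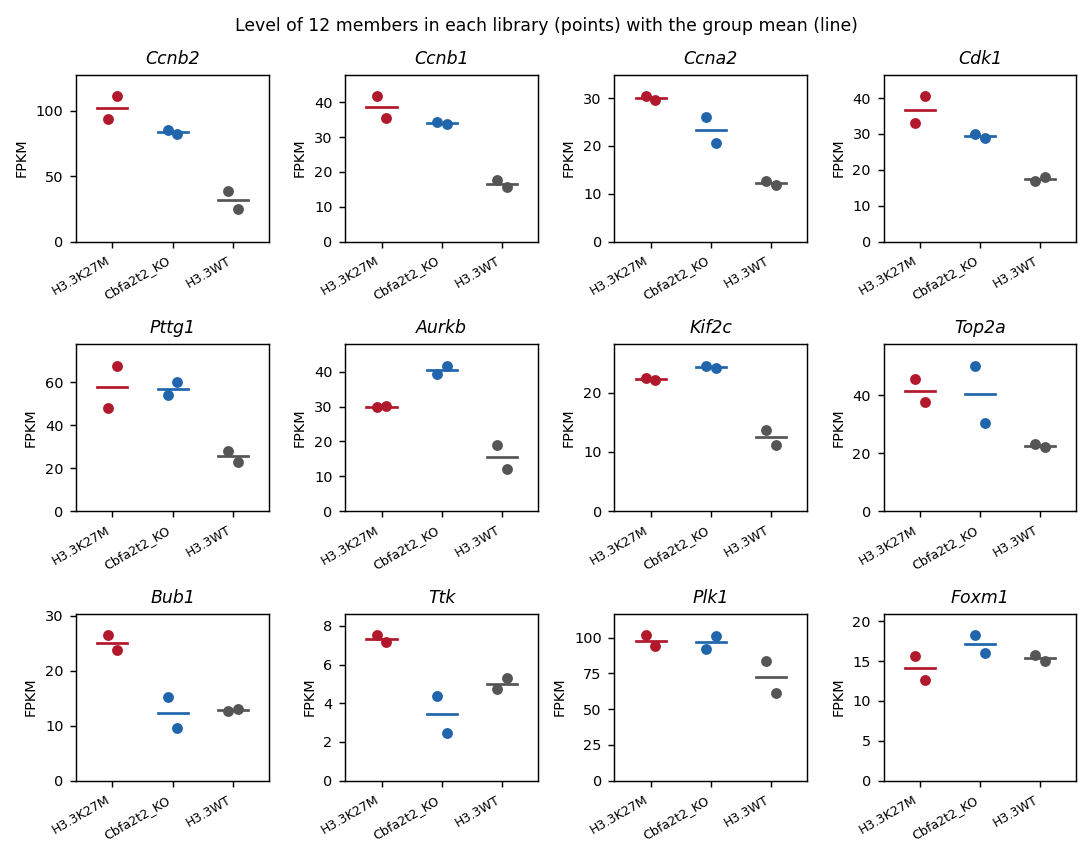
Points are FPKM (linear axes from 0) of 12 members in each library and lines are group means, with 2 libraries in each of H3.3K27M, Cbfa2t2_KO and H3.3WT. From Ccnb2 to Top2a both altered lines lie above H3.3WT, Bub1 and Ttk are highest in H3.3K27M, and Foxm1 lies between 12.6 and 18.2 FPKM throughout.

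The differences between the lines that passed lay in 2 of the 5 spindle checkpoint genes. As given below, that count over all members is near the share of all genes, and both calls depended on single libraries. Bub1, a checkpoint kinase of the kinetochore on chr2:127801122-127831865, had 26.4 and 23.8 FPKM in H3.3K27M, 15.2 and 9.53 FPKM in Cbfa2t2_KO, and 12.8 and 13.1 FPKM in H3.3WT. The Cbfa2t2_KO values lay on either side of H3.3WT and both H3.3K27M values stood clear of the other 4. Bub1 rose by 0.90 ± 0.17 in H3.3K27M against H3.3WT (limma adjusted p = 0.00688), and its change in Cbfa2t2_KO was -0.09 ± 0.21 (adjusted p = 0.753). Ttk, the kinase MPS1 that starts checkpoint signalling, had 7.51 and 7.17 FPKM in H3.3K27M, 4.37 and 2.48 FPKM in Cbfa2t2_KO, and 4.74 and 5.28 FPKM in H3.3WT. Its changes against H3.3WT were 0.47 ± 0.18 in H3.3K27M (adjusted p = 0.0882) and -0.47 ± 0.23 in Cbfa2t2_KO (adjusted p = 0.145). Mad2l1, which encodes the MAD2 inhibitor of CDC20, had 4.16 and 4.20 FPKM in H3.3K27M, 3.71 and 2.99 FPKM in Cbfa2t2_KO, and 2.19 and 2.57 FPKM in H3.3WT. It rose by 0.62 ± 0.19 in H3.3K27M (adjusted p = 0.0403). Bub1b, the checkpoint protein BUBR1, did not pass, with changes of 0.48 in H3.3K27M and 0.43 in Cbfa2t2_KO. Bub3, the partner of BUB1 and BUBR1, had the lowest change of any member in H3.3K27M, -0.38 ± 0.16 (adjusted p = 0.106), with both values below H3.3WT.

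Set directly against each other in a fit of all 6 libraries, the lines differed in Bub1 and Ttk. In H3.3K27M against Cbfa2t2_KO, 2 members were higher and 0 lower, or 4.2% of the members, where 3.12% of all 11601 genes tested were called higher and 4.68% lower, so the count is near that background. At an unadjusted p under 0.05, 10 members were higher and 0 lower, where 12.4% of all genes were higher and 16.4% lower. Bub1 was higher in H3.3K27M by 1.00 ± 0.21 (limma adjusted p = 0.0299) and Ttk by 0.95 ± 0.22 (adjusted p = 0.0393). Both calls were lost without Cbfa2t2_KO replicate 2 (adjusted p = 0.197 to 0.253), without H3.3K27M replicate 1 (0.0677 to 0.0829) and without H3.3K27M replicate 2 (0.081 to 0.11), and both held without Cbfa2t2_KO replicate 1. Ttk alone was lost with only the 4 libraries in the fit (adjusted p = 0.0553). The nearest members that missed the threshold were Smc4 and Anln, with log2 changes of 0.96 ± 0.26 and 0.78 ± 0.21 (adjusted p = 0.0554 and 0.0553). The median change of all members was 0.22, against -0.02 over all genes. Removing each library's trend on length, GC content and exon number gave 6 members higher, Anln, Cenpf, Smc4 and Ube2c with Bub1 and Ttk. In that fit 6.65% of all genes were higher and 6.34% lower.

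Of the 4 genes of mitotic exit and sister separation, securin rose in both lines and separase in neither. Pttg1, which encodes securin, the inhibitor of separase, had 48.2 and 67.6 FPKM in H3.3K27M, 53.9 and 60.2 FPKM in Cbfa2t2_KO, and 28.0 and 22.9 FPKM in H3.3WT. The altered lines lay above H3.3WT without overlap, and the H3.3K27M pair spanned the Cbfa2t2_KO pair. It rose by 1.14 ± 0.21 in H3.3K27M (limma adjusted p = 0.0065) and by 1.14 ± 0.15 in Cbfa2t2_KO (adjusted p = 0.00176). Ube2c, the ubiquitin-conjugating enzyme of the anaphase-promoting complex, had 81.3 and 92.98 FPKM in H3.3K27M, 65.1 and 67.3 FPKM in Cbfa2t2_KO, and 61.0 and 49.2 FPKM in H3.3WT. It rose by 0.66 ± 0.18 in H3.3K27M (adjusted p = 0.0294), while its 0.27 ± 0.15 in Cbfa2t2_KO did not pass (adjusted p = 0.195). The exons of Ube2c share 22.8% of their bases with Tnnc2 on the other strand, and Tnnc2 was at most 0.61 FPKM. Cdc20, the activator of that complex, was the most abundant member at a mean of 228 FPKM over the 6 libraries, and Espl1, separase, averaged 23.7 FPKM. Their changes ran from 0.02 to 0.33 and did not pass.

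In the chromosomal passenger complex the kinase subunit rose alone among the 4 genes. Aurkb, on chr11:69045647-69051664, had 29.9 and 30.1 FPKM in H3.3K27M, 39.2 and 41.7 FPKM in Cbfa2t2_KO, and 19.0 and 12.2 FPKM in H3.3WT. Cbfa2t2_KO was the highest group, and none of the 3 groups overlapped. Aurkb rose by 0.93 ± 0.22 in H3.3K27M (limma adjusted p = 0.0161) and by 1.35 ± 0.20 in Cbfa2t2_KO (adjusted p = 0.0025), and the difference between the lines of -0.42 ± 0.20 did not pass (adjusted p = 0.202). The scaffold Incenp and the subunits Birc5 (survivin) and Cdca8 (borealin) had log2 changes of -0.22 to -0.10 in H3.3K27M and -0.07 to 0.19 in Cbfa2t2_KO. None of the 6 passed, nor did any under median-of-ratios scaling, although Birc5 passed in Cbfa2t2_KO with the trends on length, GC content and exon number removed.

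None of the 3 centromere and kinetochore members passed in either line by limma, and at an unadjusted p under 0.05 the count was 0 in H3.3K27M and 1, lower, in Cbfa2t2_KO. Cenpa, the histone H3 variant of centromeres, had changes of 0.31 in H3.3K27M and 0.38 in Cbfa2t2_KO. Cenpf, a large kinetochore protein of G2 cells, had 3.68 and 2.296 FPKM in H3.3K27M, 1.78 and 0.865 FPKM in Cbfa2t2_KO, and 2.39 and 2.79 FPKM in H3.3WT. Both Cbfa2t2_KO values lay below H3.3WT, and the change of -0.65 ± 0.22 fell short of the threshold (limma adjusted p = 0.0508). It passed as lower under median-of-ratios scaling, without the variance trend and with the robust fit. Cenpe, a kinetochore motor, had changes of 0.21 in H3.3K27M and -0.27 in Cbfa2t2_KO.

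Of the 7 kinesin motors, Kif2c rose in both lines, Kif4 in H3.3K27M and Kif22 in Cbfa2t2_KO. Kif2c, a microtubule depolymerase of centromeres, had 22.5 and 22.1 FPKM in H3.3K27M, 24.5 and 24.2 FPKM in Cbfa2t2_KO, and 13.8 and 11.1 FPKM in H3.3WT. Both altered lines lay above H3.3WT within a narrow range. Its change was 0.80 ± 0.18 in H3.3K27M (limma adjusted p = 0.0138) and 0.92 ± 0.16 in Cbfa2t2_KO (adjusted p = 0.00421). Kif22, a chromosome-arm motor, had 19.8 and 20.9 FPKM in H3.3K27M, 21.9 and 23.4 FPKM in Cbfa2t2_KO, and 15.6 and 13.7 FPKM in H3.3WT. Although only Cbfa2t2_KO passed (0.60 ± 0.15, adjusted p = 0.0181, against 0.45 ± 0.17, adjusted p = 0.0815), the direct difference between the lines did not pass (adjusted p = 0.561), and its 95% interval was -0.49 to 0.20. Kif4, a chromokinesin of the spindle midzone, had 5.74 and 5.12 FPKM in H3.3K27M, 5.66 and 3.36 FPKM in Cbfa2t2_KO, and 3.398 and 3.17 FPKM in H3.3WT. It rose in H3.3K27M by 0.58 ± 0.19 (adjusted p = 0.0493), and that call was lost with no filter on low values (adjusted p = 0.0503) and in the fit of 6 libraries (0.0772). Pdzd11 shares 15.1% of the exon bases of Kif4 on the other strand and had changes of -0.40 in H3.3K27M and -0.37 in Cbfa2t2_KO that did not pass. Kif11, which pushes the spindle poles apart, and Kif20a, Kif20b and Kif23, motors of the late spindle, had changes of 0.38 to 0.49 in H3.3K27M and -0.37 to 0.47 in Cbfa2t2_KO, none of which passed.

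Of the 3 spindle assembly factors 2 rose in H3.3K27M, and of the 4 cytokinesis genes 3 rose. None of the 7 passed in Cbfa2t2_KO by limma, where at an unadjusted p under 0.05 the cytokinesis gene Racgap1 alone was higher. Nusap1, which bundles spindle microtubules, had 12.2 and 12.5 FPKM in H3.3K27M, 9.39 and 6.15 FPKM in Cbfa2t2_KO, and 6.05 and 5.64 FPKM in H3.3WT. It rose by 0.97 ± 0.18 in H3.3K27M (limma adjusted p = 0.0067). Oip5 on the other strand, which shares 4.2% of its exon bases, rose by 0.93 in H3.3K27M (adjusted p = 0.00853) and 0.81 in Cbfa2t2_KO (adjusted p = 0.0102). Tpx2, which activates Aurora A on the spindle, had 33.0 and 30.6 FPKM in H3.3K27M, 28.0 and 21.0 FPKM in Cbfa2t2_KO, and 23.2 and 18.1 FPKM in H3.3WT. It rose by 0.61 ± 0.18 in H3.3K27M (adjusted p = 0.0392). For both genes H3.3K27M lay clear of the other 4 libraries. Hmmr, a spindle-associated hyaluronan receptor, had a change of 0.60 ± 0.20 in H3.3K27M that missed the threshold (adjusted p = 0.0576). None of the differences between the lines passed for these genes: the direct change was 0.63 ± 0.20 for Nusap1 (adjusted p = 0.0854) and 0.37 ± 0.19 for Tpx2 (adjusted p = 0.222).

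Anln, the actin-binding scaffold of the contractile ring, had 7.87 and 5.91 FPKM in H3.3K27M, 4.26 and 2.96 FPKM in Cbfa2t2_KO, and 2.85 and 2.95 FPKM in H3.3WT. It rose by 1.01 ± 0.20 in H3.3K27M (limma adjusted p = 0.00947), a ratio of means of 2.38, and was 0.23 ± 0.20 in Cbfa2t2_KO (adjusted p = 0.396). Ect2, the RhoA exchange factor that starts furrowing, had 7.60 and 7.01 FPKM in H3.3K27M, 7.03 and 4.84 FPKM in Cbfa2t2_KO, and 4.21 and 4.50 FPKM in H3.3WT. The change of 0.63 ± 0.18 in H3.3K27M passed (adjusted p = 0.0361), but did not with the trends on length, GC content and exon number removed (adjusted p = 0.0661). Racgap1, the centralspindlin subunit that recruits ECT2, had 22.1 and 17.9 FPKM in H3.3K27M, 15.9 and 15.4 FPKM in Cbfa2t2_KO, and 12.4 and 11.6 FPKM in H3.3WT. Its groups were ordered H3.3K27M, Cbfa2t2_KO, H3.3WT with no overlap, and 0.69 ± 0.18 passed in H3.3K27M (adjusted p = 0.0256) while 0.36 ± 0.15 in Cbfa2t2_KO did not (adjusted p = 0.0944). Prc1, the midzone cross-linker, had changes of 0.32 in H3.3K27M and 0.30 in Cbfa2t2_KO, which did not pass.

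Among the 7 genes of chromosome structure, 2 of the 3 condensin I genes rose in H3.3K27M and 1 of them in Cbfa2t2_KO, while the 2 SMC cores shared by both condensins did not pass in either. Ncapg, on chr5:45669919-45700546, had 8.12 and 7.36 FPKM in H3.3K27M, 6.002 and 3.54 FPKM in Cbfa2t2_KO, and 3.18 and 3.26 FPKM in H3.3WT. It rose by 1.05 ± 0.18 in H3.3K27M (limma adjusted p = 0.00593), and its 0.42 ± 0.23 in Cbfa2t2_KO did not pass (adjusted p = 0.189). The exons of Ncapg share 13.4% of their bases with Lcorl on the other strand, which is not among the genes listed. Ncaph, the kleisin of condensin I, had 18.1 and 16.5 FPKM in H3.3K27M, 19.5 and 18.1 FPKM in Cbfa2t2_KO, and 12.2 and 9.92 FPKM in H3.3WT. It rose by 0.61 ± 0.18 in H3.3K27M (adjusted p = 0.0397) and by 0.72 ± 0.16 in Cbfa2t2_KO (adjusted p = 0.012), the H3.3K27M call being lost with the trends on length, GC content and exon number removed. Top2a, the topoisomerase that untangles sister chromatids, had 45.5 and 37.7 FPKM in H3.3K27M, 50.2 and 30.5 FPKM in Cbfa2t2_KO, and 23.0 and 22.3 FPKM in H3.3WT. All 4 altered libraries lay above H3.3WT, and the Cbfa2t2_KO pair spanned the H3.3K27M pair. Its change was 0.84 ± 0.17 in H3.3K27M (adjusted p = 0.00966) and 0.76 ± 0.22 in Cbfa2t2_KO (adjusted p = 0.0307). Ncapd2, the other condensin I gene, did not pass, with changes of 0.15 in H3.3K27M and 0.45 in Cbfa2t2_KO.

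Mki67, the proliferation antigen Ki-67, which coats mitotic chromosomes, did not pass in either line. It had 8.53 and 4.06 FPKM in H3.3K27M, 5.96 and 3.23 FPKM in Cbfa2t2_KO, and 6.22 and 6.01 FPKM in H3.3WT. The H3.3K27M pair spanned H3.3WT and both Cbfa2t2_KO values lay below it, with changes of -0.03 ± 0.28 (limma adjusted p = 0.939) and -0.39 ± 0.24 (adjusted p = 0.248). Smc2 and Smc4 had changes of 0.16 and 0.45 in H3.3K27M and -0.43 and -0.52 in Cbfa2t2_KO. In Cbfa2t2_KO replicate 2 they stood at 5.36 and 4.18 FPKM, against 10.7 and 7.94 FPKM in replicate 1. Without replicate 1 of Cbfa2t2_KO, the log2 changes there were -0.75 for Mki67, -0.87 for Smc2, -0.91 for Smc4 and -0.79 for Ttk.

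**Figure D3:**
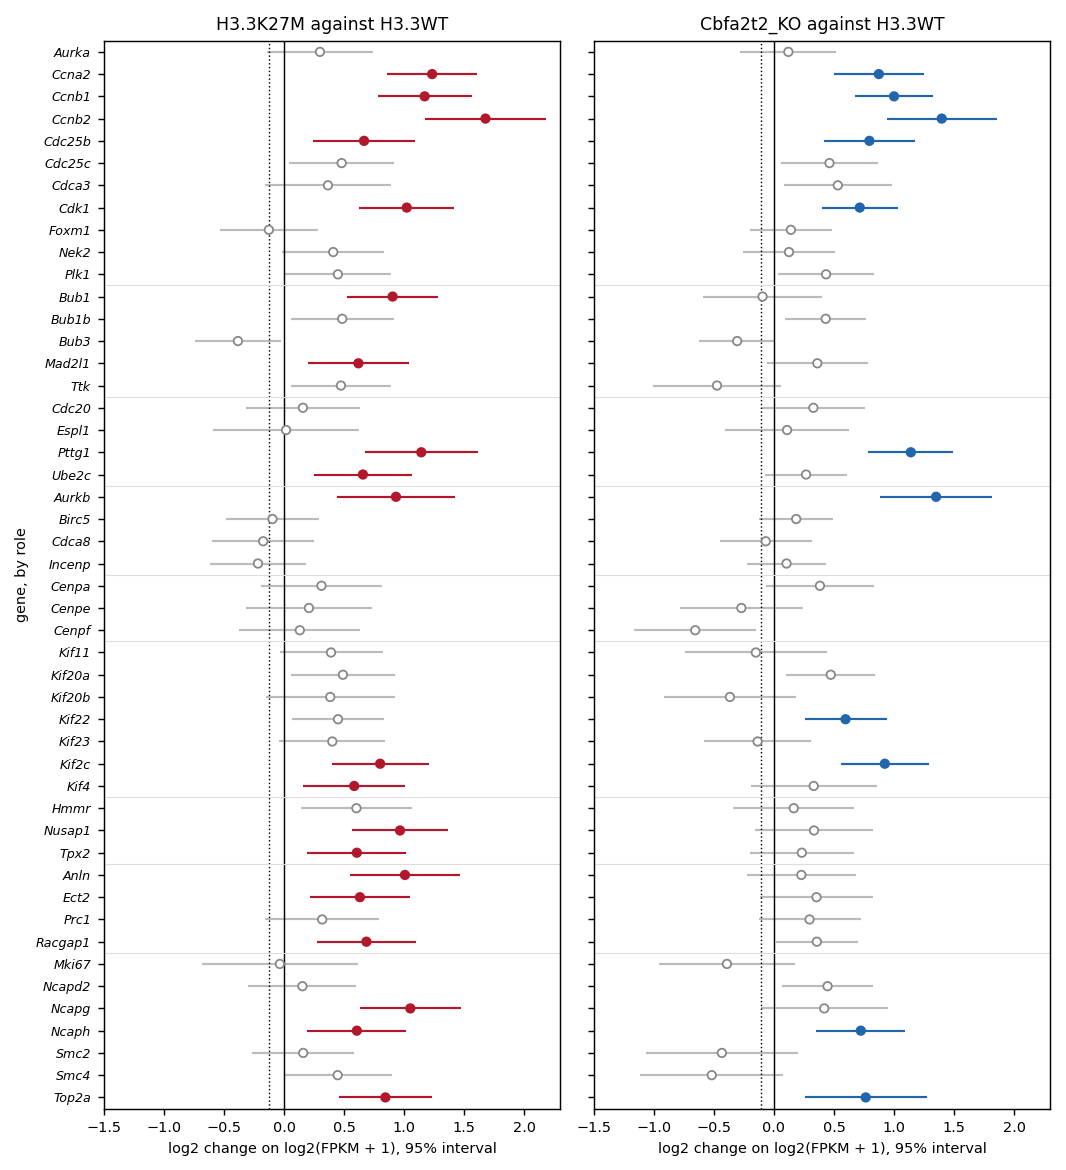
Points are log2 changes on log2(FPKM + 1) with 95% intervals from limma for the 48 members in role order, filled where the adjusted p was under 0.05. The dotted line is the median of all genes tested, at -0.12 in H3.3K27M and -0.11 in Cbfa2t2_KO, and every filled point lies to the right of it.

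In Cbfa2t2_KO replicate 2, members with longer transcripts stood nearer the H3.3WT mean than members with shorter ones. The longest annotated transcripts of the members have a median length of 3656.5 bases (1531 to 11130), 17 exons and 47.5% GC, against 3352 bases, 9 exons and 50.4% GC for protein-coding genes. For members with shorter transcripts the median log2 difference from the H3.3WT mean was 0.51 and 0.54 in the H3.3K27M libraries and 0.415 and 0.43 in the Cbfa2t2_KO libraries. For members with longer ones it was 0.63 and 0.33 in H3.3K27M, and 0.40 and 0.045 in Cbfa2t2_KO. In Cbfa2t2_KO against H3.3WT, 9 of the 24 shorter members and 2 of the 24 longer members were called higher, against 13.1% of all genes. In H3.3K27M the counts were 11 and 9, against 8.42% of all genes. Spearman's rho of the log2 change in Cbfa2t2_KO with transcript length was -0.49 over the 48 members and -0.07 over 10242 protein-coding genes. In H3.3K27M it was -0.29 over the members and -0.07 over 10218 protein-coding genes. The part of length in the Cbfa2t2_KO count was not tested beyond the fit with these trends removed, which gave 15 members higher and 1 lower, Ttk. In that fit 20.3% of all genes were higher and 20.7% lower, against 13.1% and 21.5% with the trends kept.

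The change between the lines varied with base composition. Over the 48 members, which all share the same libraries, Spearman's rho of the log2 change with transcript GC content was -0.71 in H3.3K27M against Cbfa2t2_KO, where it was -0.49 over 10215 protein-coding genes. It was -0.23 in H3.3K27M and 0.31 in Cbfa2t2_KO, both against H3.3WT, where protein-coding genes gave -0.31 and 0.06. The 24 members below the median GC content had a median change of 0.46 between the lines, Bub1 and Ttk among them, and the 24 others -0.085. The part of base composition in these 2 calls was not tested, and both were kept with the trends removed.

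**Figure D4:**
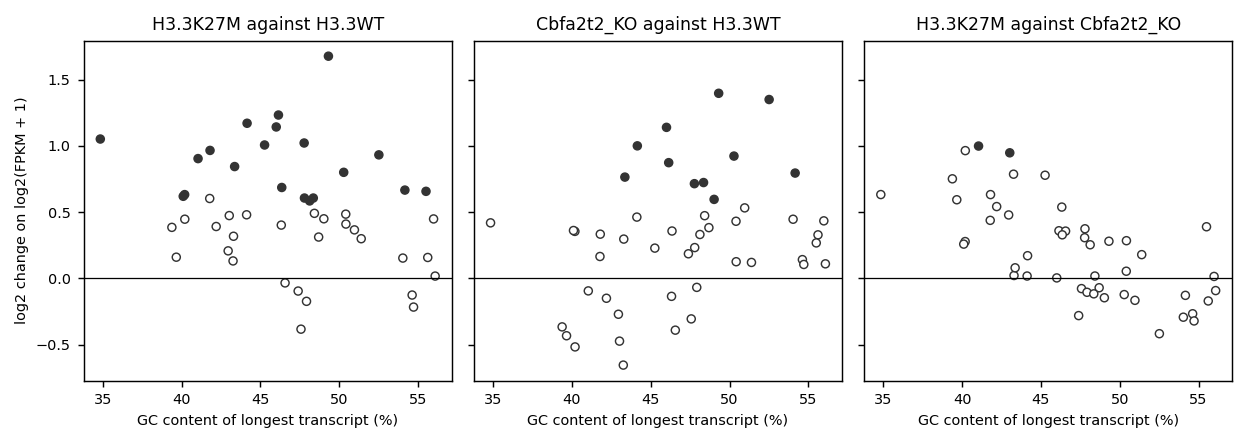
Each point is 1 of the 48 members, with the GC content of its longest transcript (percent, horizontal) and its log2 change (vertical) in the 3 comparisons, filled where called. In the right panel, H3.3K27M against Cbfa2t2_KO, the points run downward from left to right, and the 2 called genes lie below the median GC content of 47.5%.

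Among other genes of the G2/M lists, 28 of 152 tested were higher and 11 lower in H3.3K27M, with a median change of 0.13. In Cbfa2t2_KO, 25 of 149 were higher and 17 lower, with a median change of 0.03. Over all genes tested, 8.42% were higher and 17.8% lower in H3.3K27M, and 13.1% and 21.5% in Cbfa2t2_KO. The counts of single lists that follow are to be read beside those shares. Those lists were chosen with earlier results of these data known. Among the kinesin, spindle and centrosome genes, 12 of 54 were higher and 0 lower in H3.3K27M, and 14 of 53 were higher and 0 lower in Cbfa2t2_KO by limma. At an unadjusted p under 0.05, 0 of them were lower in H3.3K27M and 3 in Cbfa2t2_KO. At that threshold 13.9% of all genes were higher and 26.6% lower in H3.3K27M, and 17.8% and 28.2% in Cbfa2t2_KO. Haus1, an augmin subunit that seeds microtubules within the spindle, had 17.1 and 21.5 FPKM in H3.3K27M, 19.0 and 18.2 FPKM in Cbfa2t2_KO, and 6.93 and 6.43 FPKM in H3.3WT. Its rise was 1.39 ± 0.19 in H3.3K27M (limma adjusted p = 0.00243) and 1.35 ± 0.15 in Cbfa2t2_KO (adjusted p = 0.00107). Cep55, a protein of the midbody, rose by 1.35 ± 0.19 in H3.3K27M and 0.88 ± 0.22 in Cbfa2t2_KO, and Pimreg rose by 1.01 ± 0.20 in H3.3K27M and 1.27 ± 0.19 in Cbfa2t2_KO. Sapcd2 rose by 0.95 ± 0.25 in H3.3K27M and 1.18 ± 0.25 in Cbfa2t2_KO.

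The kinetochore list held changes in both directions, with 11 of 36 higher and 4 lower in H3.3K27M and 6 of 34 higher and 5 lower in Cbfa2t2_KO. Cenph, of the constitutive centromere network, rose by 1.13 ± 0.20 in H3.3K27M and 1.05 ± 0.19 in Cbfa2t2_KO, and Ska1, of the microtubule-binding SKA complex, by 0.86 ± 0.20 in H3.3K27M and 1.28 ± 0.21 in Cbfa2t2_KO. Nsl1, of the MIS12 complex, fell by 0.91 ± 0.18 in H3.3K27M and 1.18 ± 0.16 in Cbfa2t2_KO. Mad2l1bp, whose product p31comet silences the checkpoint by acting on MAD2, had 9.77 and 9.97 FPKM in H3.3K27M, 11.1 and 13.7 FPKM in Cbfa2t2_KO, and 34.5 and 29.8 FPKM in H3.3WT. It fell by 1.60 ± 0.17 in H3.3K27M (limma adjusted p = 0.0013) and by 1.30 ± 0.16 in Cbfa2t2_KO (adjusted p = 0.00144), with no overlap of either line with H3.3WT.

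In the cohesin and condensin list, 3 of 17 genes were higher and 2 lower in H3.3K27M, and 0 of 17 higher and 4 lower in Cbfa2t2_KO by limma, with 1 higher and 5 lower there at an unadjusted p under 0.05. Cdca5, which encodes sororin, the keeper of cohesin on sister chromatids, had 32.1 and 33.3 FPKM in H3.3K27M, 42.1 and 45.2 FPKM in Cbfa2t2_KO, and 85.2 and 76.7 FPKM in H3.3WT. It fell by 1.28 ± 0.16 in H3.3K27M (limma adjusted p = 0.00196) and by 0.88 ± 0.13 in Cbfa2t2_KO (adjusted p = 0.00281). Sgo1, which encodes shugoshin, the protector of centromeric cohesin, fell by 0.77 ± 0.18 in H3.3K27M and 0.78 ± 0.21 in Cbfa2t2_KO. The cohesin loader gene Nipbl fell by 1.00 ± 0.24 in Cbfa2t2_KO, and the cohesin core gene Smc3 rose by 0.73 ± 0.17 in H3.3K27M.

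The anaphase-promoting complex list had 1 of 17 genes higher and 2 lower in H3.3K27M, and 3 of 17 higher and 3 lower in Cbfa2t2_KO. Anapc4, a scaffold subunit, rose by 0.77 ± 0.19 in H3.3K27M and 0.68 ± 0.19 in Cbfa2t2_KO. Anapc15, which helps release the complex from the checkpoint, fell by 0.73 ± 0.19 in H3.3K27M and 0.82 ± 0.18 in Cbfa2t2_KO. Anapc7 fell by 0.84 ± 0.16 in H3.3K27M. Fbxo5, the complex's inhibitor EMI1, had 28.3 and 29.0 FPKM in H3.3K27M, 21.7 and 16.8 FPKM in Cbfa2t2_KO, and 40.05 and 36.8 FPKM in H3.3WT. It fell by 0.97 ± 0.16 in Cbfa2t2_KO (limma adjusted p = 0.00392), and the -0.41 ± 0.16 in H3.3K27M did not pass (adjusted p = 0.091). Of the genes of the G2/M checkpoint and CDK1 regulation, 1 of 14 was higher and 1 lower in each line. Chek2, a checkpoint kinase of the DNA damage response, rose by 0.80 ± 0.18 in H3.3K27M and by 0.66 ± 0.16 in Cbfa2t2_KO. Pkmyt1, an inhibitory kinase of CDK1, fell by 0.61 ± 0.17 in H3.3K27M, and Arpp19, an inhibitor of the phosphatase PP2A, fell by 0.68 ± 0.16 in Cbfa2t2_KO.

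In the list of DREAM and MuvB genes with NF-Y subunits, 0 of 14 genes were higher and 2 lower in H3.3K27M by limma, and 1 of 14 higher and 4 lower in Cbfa2t2_KO. At an unadjusted p under 0.05 the H3.3K27M counts were 1 and 2. Nfyc, an NF-Y subunit, had 17.0 and 13.9 FPKM in H3.3K27M, 15.5 and 14.8 FPKM in Cbfa2t2_KO, and 26.4 and 25.2 FPKM in H3.3WT, and fell by 0.71 ± 0.17 in H3.3K27M (adjusted p = 0.0198) and 0.73 ± 0.14 in Cbfa2t2_KO (adjusted p = 0.00651). Nfya, the NF-Y subunit that reads CCAAT, fell by 0.65 ± 0.20 in H3.3K27M and 0.58 ± 0.17 in Cbfa2t2_KO. In Cbfa2t2_KO, E2f4, the E2F of the repressive complex, fell by 0.48 ± 0.13 and Lin37 rose by 0.51 ± 0.17. Mybl2, which encodes B-MYB, had changes of 0.31 in each line and did not pass.

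**Figure D5:**
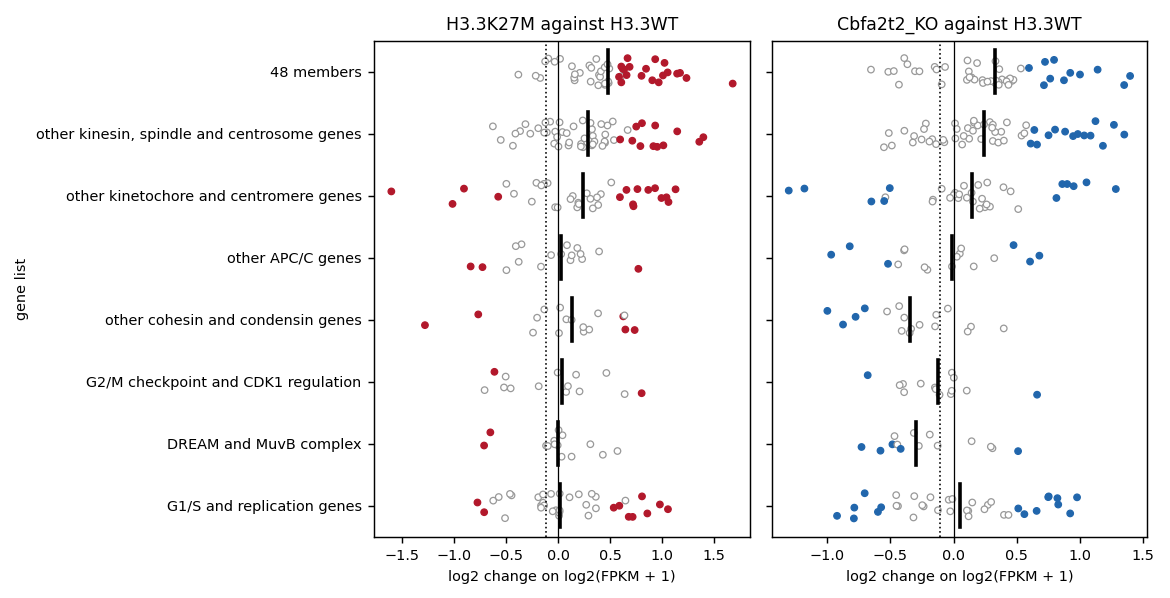
Points are log2 changes of single genes on log2(FPKM + 1) for the 48 members (top row) and 7 lists of other cell cycle genes, filled where called, with thick bars at list medians and a dotted line at the median of all genes. The members' bars stand at 0.48 in H3.3K27M and 0.33 in Cbfa2t2_KO, to the right of each other list's bar.

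Genes of the step before G2 were mixed. Of the G1/S and replication genes, 8 of 37 were higher and 2 lower in H3.3K27M, with a median change of 0.01. In Cbfa2t2_KO, 9 of 36 were higher and 6 lower, with a median change of 0.05. Over all genes tested, 8.42% were higher and 17.8% lower in H3.3K27M, and 13.1% and 21.5% in Cbfa2t2_KO. Orc1, of the origin recognition complex, rose by 1.05 ± 0.17 in H3.3K27M and 0.75 ± 0.18 in Cbfa2t2_KO, and Rfc4, of the clamp loader, by 0.98 ± 0.17 in H3.3K27M and 0.92 ± 0.15 in Cbfa2t2_KO. Pold1, the catalytic subunit of polymerase delta, rose by 0.98 ± 0.18 in Cbfa2t2_KO, and Orc6 fell there by 0.92 ± 0.18. Among the CDK inhibitor genes, Cdkn2a, which encodes p16INK4A and p19ARF, had 12.2 and 17.6 FPKM in H3.3K27M, 53.3 and 60.3 FPKM in Cbfa2t2_KO, and 6.604 and 6.65 FPKM in H3.3WT. It rose by 1.04 ± 0.21 in H3.3K27M (limma adjusted p = 0.00968) and by 2.92 ± 0.14 in Cbfa2t2_KO (adjusted p = 0.000109), and was lower in H3.3K27M than in Cbfa2t2_KO by 1.88 ± 0.19 on the log2 scale (adjusted p = 0.00315). Cdkn1a, Cdkn1b and Cdkn2d did not pass in either line, with changes between -0.65 and 0.13.

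Immediate early genes, which cells switch on within minutes of serum or handling, moved with the same groups. Of the 10 tested, 7 were lower and 1 higher in H3.3K27M and likewise 7 and 1 in Cbfa2t2_KO. Over all genes tested, 17.8% were lower and 8.42% higher in H3.3K27M, and 21.5% and 13.1% in Cbfa2t2_KO. The summed FPKM of the list was 146 to 161 in H3.3K27M, 129 to 156 in Cbfa2t2_KO and 494 to 695 in H3.3WT. Egr1 had 5.97 and 6.43 FPKM in H3.3K27M, 7.55 and 7.59 FPKM in Cbfa2t2_KO, and 173 and 273 FPKM in H3.3WT. Ier2 fell by 2.49 ± 0.20 in H3.3K27M and 2.83 ± 0.17 in Cbfa2t2_KO, Junb fell by 1.36 ± 0.27 in H3.3K27M and 2.40 ± 0.27 in Cbfa2t2_KO, and Ier3 rose by 2.40 ± 0.18 in H3.3K27M and 2.47 ± 0.19 in Cbfa2t2_KO. The part of what moved these genes in the members' change was not tested.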

How the data were processed

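Expression was measured by poly(A) RNA-seq in 6 libraries, which the authors deposited as FPKM in 2 tables, of 14431 and 14318 genes. Per the submitters' processing notes the tools were Trim Galore, HISAT2, StringTie and DESeq with build GRCm38; versions, the annotation release and the strand of the libraries are not given in the sources used here. The 2 tables give the same H3.3WT values for each of their 14082 shared genes and were read on one scale. Columns were matched to groups by name, the H3.3K27M columns carry only the letter M, and replicate numbers are names that pair no libraries. No step size turned the FPKM into whole reads (at best a share of 0.350 to 0.390 of values, tolerance 0.1), so depth is unknown and no counting intervals are given.

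Differences in log2(FPKM + 1) were tested by limma 3.58.1 (R 4.3.3, moderated by eBayes with a variance trend) for genes averaging 1 FPKM or more in the comparison. The fits against H3.3WT held 4 libraries, and that between the lines held 6. P-values were adjusted by Benjamini-Hochberg over all genes tested. Fold changes on this scale understate those of low genes, and the smallest two-sided p of an exact permutation of 2 against 2 libraries is 0.333. The procedure was tested on simulated data. Coordinates, lengths and GC content are from GENCODE vM21, promoters from RefSeq (GRCm38.p6), and near-identical copies (at least 95% over 200 bases) from blastn 2.17.0. The strand being unknown, reads of the 14 members that overlap a gene on the other strand cannot be told apart from it. Python 3.11.15 and matplotlib 3.10.9 drew the figures.

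The members and lists were chosen with earlier results of these data known. Values in each library are given for every member called in a comparison and for Ccnb1, Cdk1, Plk1, Aurka, Foxm1, Mki67 and Top2a, and from each pathway list up to 4 genes with the largest log2 change among those called against H3.3WT, with each CDK inhibitor gene tested. Values of Bub3, Cenpf, Smc2, Smc4 and Mybl2 beyond that rule were chosen after they were seen. Alternatives covered the pseudocount (0.1), the filter (none, 5 FPKM), median-of-ratios and quantile scaling, the variance model, the libraries in the fit, a log2 change of at least 0.5, trends on length, GC content and exon number, and leaving out each library.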

Additional observations from a re-analysis of the deposited data

How the results depend on the processing

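Of 1845 alternative values of single members, 1716 kept their direction and side of the threshold, 65 passed where they had not, 64 no longer passed and 0 reversed with a call. Under median-of-ratios scaling the members called in Cbfa2t2_KO against H3.3WT numbered 18 higher and 1 lower, with a median of 0.44. Of all genes, 17.9% were higher and 17.3% lower under that scaling. Quantile normalization also gave a median of 0.44. In Cbfa2t2_KO 1 member was lower without the variance trend, 1 with the robust fit and 1 with the trends on length, GC content and exon number removed. In those fits 21.2%, 22.4% and 20.7% of all genes were lower. In H3.3K27M against H3.3WT the median was 0.61 under median-of-ratios scaling and 0.64 under quantile normalization. In H3.3K27M against Cbfa2t2_KO the count higher was 5 under median-of-ratios scaling (3.97% of all genes) and 5 under quantile normalization (4.26%). It was 4 with the robust fit (3.68%), 1 with 4 libraries in the fit (1.88%) and 6 with the trends removed (6.65%). The median there was 0.067 with a mean of at least 5 FPKM, 0.24 under median-of-ratios scaling and 0.25 under quantile normalization. Scaling shifts all genes by construction, and for the other settings the cause was not tested. Leaving out each library in turn gave 8 to 17 members higher, 0 to 5 lower and medians of 0.17 to 0.40 in Cbfa2t2_KO, 5 to 12 higher and medians of 0.45 to 0.61 in H3.3K27M, and 0 to 3 higher and medians of 0.082 to 0.32 between the lines. The lower calls among those fits were Cenpf, Mki67, Smc2, Smc4 and Ttk, all without Cbfa2t2_KO replicate 1. In that fit, which rests on a lone Cbfa2t2_KO library, 15.8% of all genes were lower. No paired analysis was possible because the labels give no replicate numbers. The H3.3WT replicates stood apart in some members (Espl1 at 29.3 and 17.5 FPKM), and with 2 libraries a group such a spread limits what can be resolved.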
